A study of Mus musculus with 20 samples.

Results

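Immediate early genes are genes whose transcription starts within minutes of a stimulus without new protein synthesis. Described here are 10 of them in mouse colon, Fos, Fosb, Jun, Junb, Egr1, Egr2, Ier2, Atf3, Dusp1 and Zfp36, out of 31184 genes listed in both deposited count tables. They were chosen by name, and all 10 have a row in each table. The study deleted Pcca, which encodes a subunit of the mitochondrial enzyme that carboxylates propionyl-CoA, and sequenced poly-A RNA from colon sections of 20 mice in 5 groups of 4. On standard chow the groups were Pcca Vill mice, in which a Villin-Cre transgene removes Pcca from intestinal epithelium, Pcca Alb mice, in which Albumin-Cre removes it from liver, and floxed Pcca ff controls. On a high fat diet (HFD, 60% of energy from fat) the groups were Pcca Vill and Pcca ff. Chow mice were 9 weeks old. HFD mice were males, ate the diet for 12 weeks from 6 weeks of age and were 18 weeks old. All were fasted for 4 hours, and the colon was flushed with cold saline and frozen. The Pcca Vill mice and the Pcca ff controls were littermates, per the study design. The time between death and freezing is not given in the sources used here, and neither is the part of Pcca that Cre removes.

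Growth factor receptors acting through Ras and the ERK kinases, and stress acting through the JNK and p38 kinases, reach these promoters through the serum response factor with its Elk partners and through the CREB and ATF factors. Fos and Fosb proteins pair with Jun or Junb to form the AP-1 transcription factor. Egr1 and Egr2 are zinc finger transcription factors, Ier2 is a nuclear protein, and Atf3 is a stress-induced factor of the ATF family. Dusp1 (a phosphatase of the p38, JNK and ERK kinases) and Zfp36 (tristetraprolin, which destabilises AU-rich mRNAs) close the loop by ending the response. In the gut these genes are known to respond to growth factors, injury, microbial products and handling of the tissue.

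Serum response factor and CREB or ATF sites are 2 kinds of element through which genes of this class are known to be switched on, so the sequence before the start is given for 6 members whose window holds one or the other. In the Jun window neither of the 2 letter patterns searched for, given below, was found, and variants of these sites were not searched. The Junb window also holds a match, TGACG beginning 106 bases before the start, and is not shown. RefSeq promoter windows (build GRCm38.p6, 250 bases before to 50 after each start) were matched by symbol for 8 members, all but Egr1 and Ier2. Each line below is the 150 bases before the start, 5′ to 3′ on the strand of the gene. Capitals mark the CArG box, the site of the serum response factor, and TGACG or its complement CGTCA, which is one arm of the CREB and ATF site.
Fos (GRCm38.p6 chr12:85473740-85473889, plus strand): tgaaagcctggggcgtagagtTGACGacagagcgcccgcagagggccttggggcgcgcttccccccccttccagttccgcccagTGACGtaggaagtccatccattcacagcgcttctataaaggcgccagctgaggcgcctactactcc
Fosb (GRCm38.p6 chr7:19310046-19310195, minus strand): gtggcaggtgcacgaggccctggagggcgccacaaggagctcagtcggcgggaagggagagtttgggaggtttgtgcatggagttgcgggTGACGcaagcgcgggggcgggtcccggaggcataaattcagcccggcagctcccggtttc
Atf3 (GRCm38.p6 chr1:191183334-191183483, minus strand): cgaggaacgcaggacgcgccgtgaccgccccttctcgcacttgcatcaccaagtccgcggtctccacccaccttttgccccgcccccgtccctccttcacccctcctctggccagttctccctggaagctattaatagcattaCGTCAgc
Dusp1 (GRCm38.p6 chr17:26508473-26508622, minus strand): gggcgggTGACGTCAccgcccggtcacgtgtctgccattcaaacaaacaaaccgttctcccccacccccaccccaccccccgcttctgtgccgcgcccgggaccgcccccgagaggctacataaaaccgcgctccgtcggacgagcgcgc
Zfp36 (GRCm38.p6 chr7:28379229-28379378, minus strand): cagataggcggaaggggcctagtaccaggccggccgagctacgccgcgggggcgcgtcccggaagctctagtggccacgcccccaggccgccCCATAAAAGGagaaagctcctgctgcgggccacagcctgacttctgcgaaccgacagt
Egr2 (GRCm38.p6 chr10:67537719-67537868, plus strand, 1 of several listed starts): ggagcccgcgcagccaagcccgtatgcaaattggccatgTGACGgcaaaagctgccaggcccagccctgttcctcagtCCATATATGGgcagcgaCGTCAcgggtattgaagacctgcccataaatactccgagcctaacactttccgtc
The Fos window holds TGACG beginning 129 and 66 bases before the start, with a TATAAA 33 bases before it. In Fosb the TGACG begins 60 bases before the start, and in Dusp1 the arms at 143 and 140 bases overlap to form the full TGACGTCA. Zfp36 has a CArG box 58 bases before the start, and the Egr2 window shown has one at 72 bases. Searched on both strands over the whole 300-base windows, TGACG was found in 6 of the 8 members (Fos, Fosb, Junb, Egr2, Atf3 and Dusp1), against 20.8% of all 32851 windows. The CArG box was found in 2 (Egr2 and Zfp36) against 1.63% of windows, GCGNGGGCG, the Egr site, in 2 (Fosb and Zfp36) against 5.55%, and TATAAA in 2 (Fos and Junb) against 13.6%. The AP-1 site TGANTCA was in 0 of the 8, against 7.81% of windows. A member counts here if any of its windows holds the match, and Egr2 has several windows. The shares are per single window, so the 2 are not in the same unit. These matches describe the letters of these windows only.

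Counted reads per library were 16.9 to 24.4 M on HFD and 27.9 to 40.4 M on chow, with mitochondrial transcripts at 4.5 to 9.75% of them on HFD and 3.14 to 4.07% on chow. All HFD libraries hold reads of Ddx3y, whereas the chow libraries all hold Xist and no Ddx3y read, so diet, age and sex differ together between the diets and cannot be told apart. Colon epithelial markers (10 genes, among them Car1, Slc26a3, Aqp8, Krt20 and Vil1) summed to 8382 CPM (counts scaled to library size, with TMM factors over all libraries) or more in every library. Squamous epithelium markers, 7 of 8 measured, summed to 98.0 CPM in chow Alb 2 and to at most 12.0 CPM in any other library. Small intestine markers, 11 of 11 measured, summed to 76.5 to 1057 CPM in chow Vill, 92.5 to 816 in chow Alb and 124 to 1248 in chow ff. On HFD these markers reached 279 to 528 CPM in the Vill libraries and 350 to 1648 in the ff libraries, with ff 1 and 3 the highest. Of the small intestine list, 0 to 3 genes had no read in a given library, Defa24 in 11 libraries and Apoa4 in 8, whereas Fabp6, Slc10a2, Fabp2, Apob and Lyz1 had reads in all 20. The sums rest mainly on Fabp2, Apob and Slc10a2, which reached 727, 574 and 501 CPM in their highest library. Sis reached 73.8 CPM there, Fabp6 24.8, Lyz1 16.9, Apoa1 7.58, Defa24 3.14, Apoc3 1.04, Lct 0.42 and Apoa4 0.39. Pcca itself averaged 30.2 ± 2.53 CPM in chow Vill and 48.3 ± 9.13 in chow ff (SD, n = 4 each), a log2 fold change of -0.67 (edgeR adjusted p = 1.00). On HFD Pcca averaged 34.3 ± 2.08 CPM in Vill and 43.3 ± 15.5 in ff (log2 -0.35, -0.85 to 0.16, edgeR unadjusted p = 0.15, adjusted p = 0.93). The libraries labelled HFD ff 1 and HFD ff 3, at 28.9 and 31.2 CPM of Pcca, lie below all 4 HFD Vill libraries (32.6 to 37.3 CPM), whereas HFD ff 2 and 4 lie above them at 53.5 and 59.5 CPM. Pcca in these libraries goes against their label, so fold changes, spread and correlations on HFD are also given without them. Chow Alb averaged 45.8 ± 8.82 CPM of Pcca, close to chow ff (log2 -0.08, -0.42 to 0.26, edgeR adjusted p = 0.99).

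By the deposited coordinates on mm39, all 10 are protein-coding genes. The files place Fos (ENSMUSG00000021250) at chr12:85520664-85524047 on the plus strand and Fosb (ENSMUSG00000003545) at chr7:19036621-19043976 on the minus strand. They place Jun (ENSMUSG00000052684) at chr4:94937271-94940459 on the minus strand and Junb (ENSMUSG00000052837) at chr8:85701113-85705347 on the minus strand. The Egr genes are Egr1 (ENSMUSG00000038418) at chr18:34992876-34998037 on the plus strand and Egr2 (ENSMUSG00000037868) at chr10:67371305-67378018 on the plus strand. The others are Ier2 (ENSMUSG00000053560) at chr8:85387960-85389483 on the minus strand and Atf3 (ENSMUSG00000026628) at chr1:190902493-190950236 on the minus strand, followed by Dusp1 (ENSMUSG00000024190) at chr17:26724564-26781102 on the minus strand and Zfp36 (ENSMUSG00000044786) at chr7:28076209-28079678 on the minus strand.

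Per kilobase of gene length, Fos, Jun, Junb and Ier2 were the most abundant members in all 5 groups, and Egr1, Fosb and Egr2 the least. In chow ff, Fos averaged 62.1 ± 19.0 CPM per kilobase, Junb 56.8 ± 6.83, Jun 44.9 ± 11.3 and Ier2 42.6 ± 4.02 (SD, n = 4). Fos and Junb, and Jun and Ier2, lie closer together than the larger of their SDs. In chow Vill the highest mean was that of Junb, at 54.3 ± 18.5 CPM per kilobase, beside Fos at 54.2 ± 29.0. In chow Alb it was that of Jun, at 58.3 ± 22.1, beside Junb at 55.7 ± 7.99. These means also lie closer together than their SDs, so the order at the top is not settled. Zfp36 followed in chow ff at 29.4 ± 6.97 CPM per kilobase, not separated from Atf3 at 27.4 ± 18.6 by more than the spread. Dusp1 stood at 11.9 ± 2.59 and Egr1 at 5.29 ± 1.05, both below Zfp36 by more than the spread. Fosb at 1.36 ± 0.99 and Egr2 at 0.18 ± 0.08 CPM per kilobase were the lowest. Egr2 rests on 2 to 50 reads per library, so its values carry the largest counting error of the 10.

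**Figure D1:**
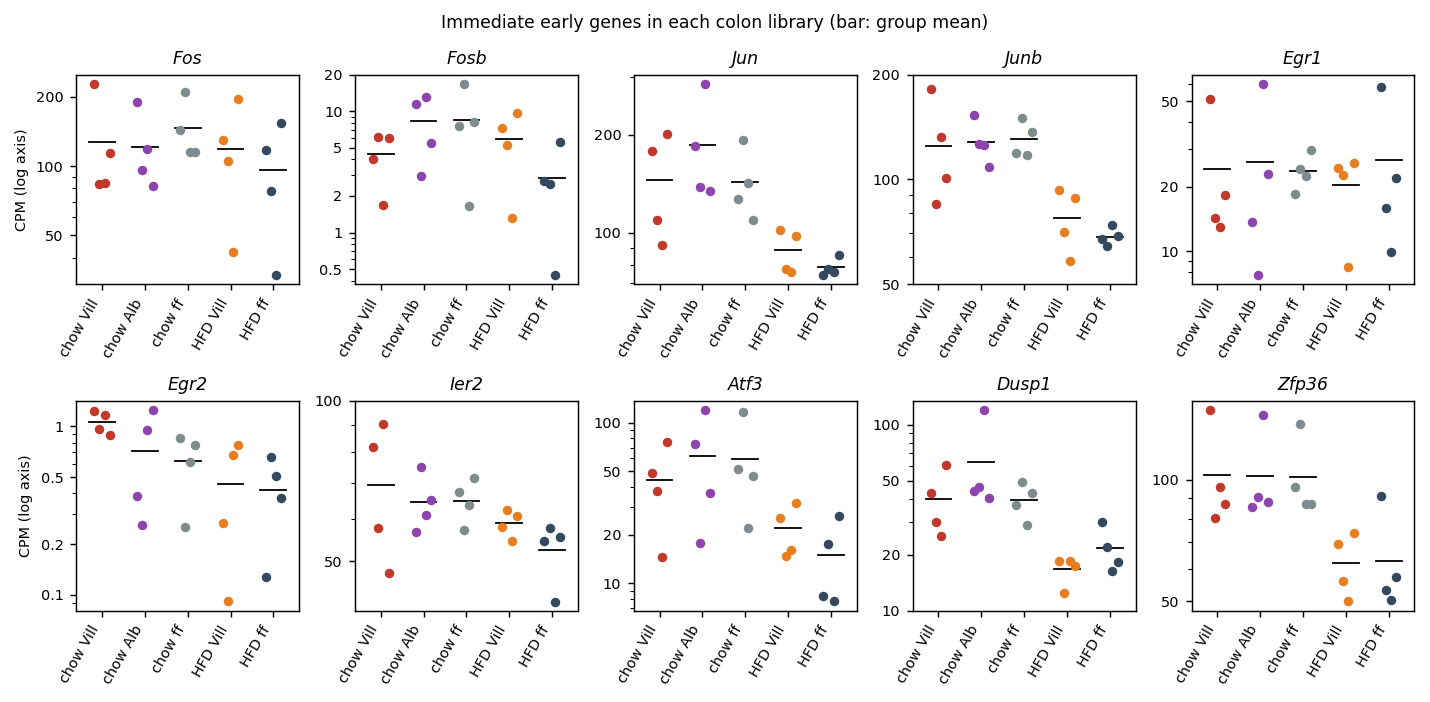
Each panel plots 1 gene in CPM on a log axis, with 1 point per library, a bar at the group mean, and the groups in the order chow Vill, chow Alb, chow ff, HFD Vill, HFD ff. Points of the groups compared overlap in every panel except Egr2 on chow, where the 4 Vill libraries lie above the 4 ff libraries.

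Chow Vill against chow ff asks what loss of Pcca in the gut epithelium does to the colon. None of the 10 members was called here by edgeR's quasi-likelihood test at an adjusted p under 0.05, where 0.00508% of all 19701 genes tested were called, and none had an unadjusted p under 0.05. DESeq2 and limma-voom called 0 members as well. Their log2 fold changes ran from -0.93 to 0.77 with a median of 0.01, beside 0.00 over all genes. Fos had 227, 83.3, 84.7 and 115 CPM in chow Vill, against 143, 210.2, 115 and 116 CPM in chow ff. The groups overlap, with Vill 1 above every ff library and Vill 2 and 3 below every one. Its log2 fold change was -0.19 (95% interval -0.98 to 0.59, edgeR adjusted p = 1.00), and 0.03 without ff 2.

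Fosb, the lowest of these fold changes, had 4.01, 6.09, 1.69 and 6.06 CPM in chow Vill, against 7.53, 16.7, 1.66 and 8.05 in chow ff. All ff libraries but ff 3 lie above every Vill library, and ff 3 lies below them all. The log2 fold change was -0.93 (-2.33 to 0.48, edgeR adjusted p = 1.00), and -0.37 without ff 2. Egr1 had 51.2, 14.2, 13.1 and 18.3 CPM in chow Vill, against 18.4, 24.1, 22.4 and 29.8 in chow ff. Vill 1 alone stood above the ff libraries and the other Vill libraries stood below all of them, so the fitted difference was near 0 (log2 0.03, -1.24 to 1.31).

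Egr2 was the highest, with 1.23, 0.97, 1.17 and 0.89 CPM in chow Vill, on 38, 39, 50 and 23 reads, against 0.85, 0.25, 0.61 and 0.77 CPM in chow ff, on 29, 8, 21 and 27 reads. It is the 1 member whose groups did not overlap, where 1.34% of all genes did not overlap in either direction. The log2 fold change was 0.77 (-0.31 to 1.86, edgeR adjusted p = 1.00), and 0.51 without ff 2. The 2 members that end the response differed by far less than their spread. Zfp36 had 149, 80.3, 95.9 and 87.2 CPM in chow Vill, against 95.7, 138, 87.3 and 86.8 in chow ff (log2 0.02, -0.50 to 0.53). Dusp1 averaged 39.6 ± 15.7 CPM in chow Vill and 39.4 ± 8.58 in chow ff (log2 0.01, -0.80 to 0.82).

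**Figure D2:**
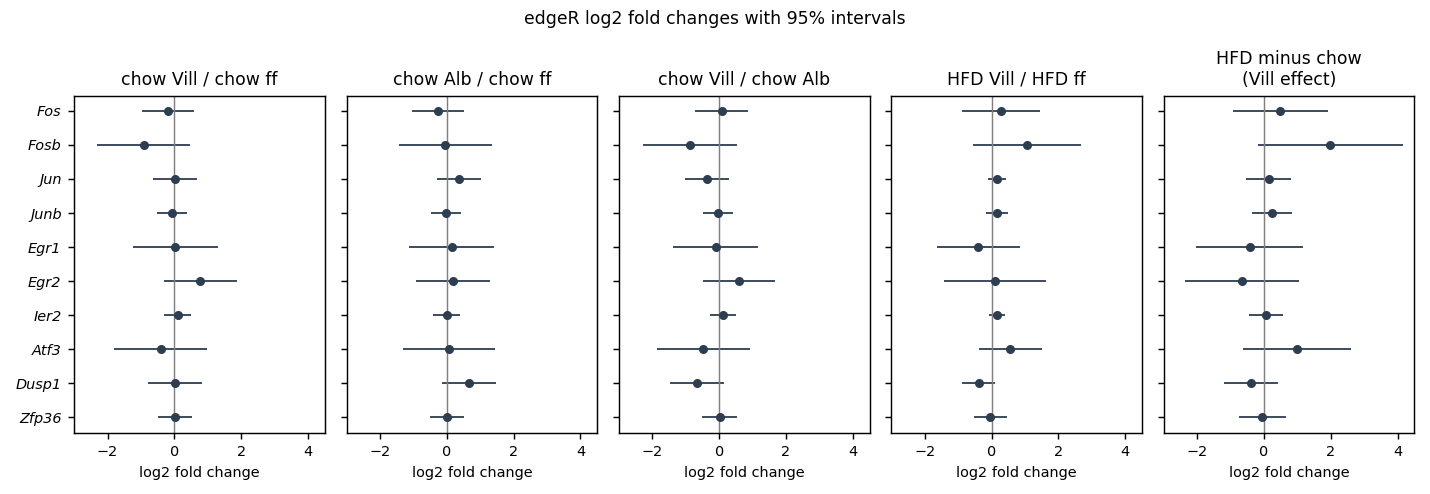
Points are edgeR log2 fold changes of the 10 genes and bars their 95% intervals, with 1 panel per comparison, the first-named group over the second, and the last panel the HFD minus chow difference of the Vill effect. Every interval includes 0, and that of Fosb is the widest in each panel.

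Chow Alb against chow ff asks what loss of Pcca in the liver does to the colon, and it shares its ff libraries with the comparison above. None of the 10 members was called in chow Alb against chow ff by edgeR, DESeq2 or limma-voom, where edgeR called 0% of 19701 genes, and none had an unadjusted p under 0.05 with edgeR. In 0 of the 10 were the groups free of overlap, against 2.83% of all genes. The median log2 fold change was 0.04, beside 0.00 over all genes. Dusp1 was the farthest from 0, with 44.2, 46.4, 119.7 and 40.5 CPM in chow Alb, against 36.9, 48.9, 28.8 and 42.9 in chow ff. Alb 3 stands far above all other libraries and the remaining Alb libraries lie among the ff ones. The log2 fold change of 0.67 (-0.14 to 1.48, edgeR adjusted p = 0.99) was 0.15 without Alb 3. Jun showed the same library on top, with 185, 138, 286 and 135 CPM in chow Alb, against 127, 193, 142 and 110.0 in chow ff (log2 0.38, -0.28 to 1.04). Egr1 had 13.7, 7.80, 60.2 and 22.9 CPM in chow Alb, so that this group holds both the lowest and the highest Egr1 level on chow. Fos had 190.0, 96.3, 118 and 82.2 CPM in chow Alb, overlapping the ff libraries given above (log2 -0.26, -1.04 to 0.52). Dusp1 shares 640 bases with Ergic1 and Junb shares 351 bases with Prdx2 on the opposite strand. Jun and Zfp36 also overlap lncRNA genes on the opposite strand. Because the strand setting is not given, reads in those stretches cannot be placed for certain.

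Chow Vill against chow Alb sets the gut deletion against the liver deletion, on the same libraries as the 2 comparisons above. With edgeR 0 members were called, against 0.00508% of 19701 genes, and 0 had an unadjusted p under 0.05. DESeq2 and limma-voom also called 0 members. The groups overlapped for all 10 members, and 4.68% of all genes did not overlap. Log2 fold changes ran from -0.88 for Fosb (-2.29 to 0.52, edgeR adjusted p = 0.73) to 0.59 for Egr2 (-0.50 to 1.68, edgeR adjusted p = 0.77), with a median of -0.07 beside 0.02 over all genes. Dusp1 averaged 39.6 ± 15.7 CPM in chow Vill and 62.7 ± 38.1 in chow Alb (SD, n = 4 each), and the spread in Alb again comes from Alb 3 (log2 -0.66, -1.47 to 0.15, edgeR adjusted p = 0.63). The Fos fold change of 0.07 was -0.39 without Vill 1, -0.05 without Alb 2 and -0.10 without Alb 4.

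On HFD, again 0 of 10 members were called by edgeR, where 0.00564% of 17715 genes were called, 0 had an unadjusted p under 0.05, and DESeq2 and limma-voom called 0 members. Groups that did not overlap were seen for 0 members and for 2.09% of all genes. The median log2 fold change was 0.16, beside -0.00 over all genes, with 7 members higher in HFD Vill and 3 lower. Fosb gave the highest value. It had 7.28, 5.25, 1.31 and 9.58 CPM in HFD Vill, against 2.67, 2.49, 0.45 and 5.56 in HFD ff. Vill 3 is low in its group and ff 3 is the lowest of all, so the groups overlap. The log2 fold change was 1.06 (-0.57 to 2.68, edgeR adjusted p = 0.93), 0.55 without ff 1 and 3, 0.70 without ff 3 or without Vill 4, and 1.61 without ff 4.

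Fos had 129.6, 106, 42.4 and 196 CPM in HFD Vill, against 118, 78.2, 33.8 and 155 in HFD ff. Both groups span several fold, and the fold change of 0.29 (-0.88 to 1.45) was -0.07 without Vill 4. Jun was much tighter, at 102, 77.8, 76.1 and 98.0 CPM in HFD Vill, against 74.5, 77.8, 76.0 and 85.4 in HFD ff (log2 0.16, -0.11 to 0.42). Atf3, which is induced by stress, had 25.4, 14.7, 16.2 and 31.7 CPM in HFD Vill, against 8.29, 17.5, 7.75 and 26.1 in HFD ff (log2 0.55, -0.38 to 1.49). The 2 low ff libraries are those labelled ff 1 and 3, in which Pcca was low and small intestine markers were highest. Without them the log2 fold change was 0.03 for Atf3, 0.03 for Fos and 0.13 for Jun. The part of those markers in the result was not tested.

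Egr1 and the 2 genes that end the response had fold changes below 0 on HFD, and for each of them ff 1 is the highest library. Egr1 had 24.6, 22.6, 8.47 and 25.9 CPM in HFD Vill, against 58.2, 16.0, 9.94 and 21.97 in HFD ff. Its log2 fold change of -0.40 (-1.65 to 0.84, edgeR adjusted p = 0.94) was 0.35 without ff 1 and 0.11 without ff 1 and 3. Dusp1 had 18.5, 12.5, 18.6 and 17.3 CPM in HFD Vill, against 29.96, 21.97, 16.4 and 18.3 in HFD ff (log2 -0.39, -0.89 to 0.10). Zfp36 had 69.1, 56.2, 50.03 and 73.6 CPM in HFD Vill, against 91.0, 53.3, 50.3 and 57.3 in HFD ff (log2 -0.04, -0.52 to 0.44). Without the libraries labelled ff 1 and 3 the value was -0.26 for Dusp1 and 0.18 for Zfp36. The other members had 0.24 for Junb, 0.07 for Ier2 and -0.18 for Egr2 without them, against 0.16, 0.15 and 0.11 with all libraries. HFD ff 1 also has the largest mitochondrial share of all libraries, 9.75% of reads, and its part in these values was not tested.

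The Vill effect on HFD minus the Vill effect on chow was tested in a fit of the 16 Vill and ff libraries. With edgeR 0 members and 0% of 19516 genes were called. At an unadjusted p under 0.05 there were 0 members with edgeR and 1 with DESeq2, which called 0 after adjustment, as did limma-voom. Fosb gave the farthest value from 0, a log2 difference of 1.99 (-0.19 to 4.17, edgeR adjusted p = 1.00), from the chow and HFD levels given above. Over the alternatives tried it ran from 1.42 to 2.54, and it was 1.47 without the libraries labelled HFD ff 1 and 3. Atf3 followed at 0.98 (-0.64 to 2.59), or 0.44 without those libraries, and Fos stood at 0.49 (-0.94 to 1.92). The members' median was 0.10, beside -0.01 over all genes.

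The authors' deposited table gives no member an adjusted p under 0.05 in any of its 4 comparisons. The smallest value for a member in the authors' deposited table is 0.68, for Fosb in chow Vill against chow Alb, with a log2 fold change of -0.90.

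The spread between animals of the same group was wide for some members and narrow for others. The SD of log2 CPM within groups had a median of 0.56 over the 10 members on chow and 0.52 on HFD, against 0.38 and 0.37 over 20280 genes. The HFD median was 0.39 over the members and 0.33 over all genes without the libraries labelled ff 1 and 3. Fosb, at 1.09 on chow and 1.35 on HFD, and Atf3, at 1.06 and 0.70, had large SDs, as did Egr1 at 0.91 and 0.93. Ier2, at 0.28 and 0.16, Junb, at 0.32 and 0.23, and Zfp36, at 0.36 and 0.33, lay below the median of all genes under both diets, and on HFD so did Jun and Dusp1, 5 of the 10. Fos had 0.55 on chow and 0.94 on HFD, and Jun 0.47 on chow and 0.17 on HFD, so the order of those 2 depends on the diet group. The ratio of the highest to the lowest library was 12.4 for Fosb in HFD ff and 10.0 in chow ff, whereas Ier2 in chow ff had a ratio of 1.25. Egr1 was the reverse case in chow ff, with a ratio of 1.62, against 7.72 in chow Alb.

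**Figure D3:**
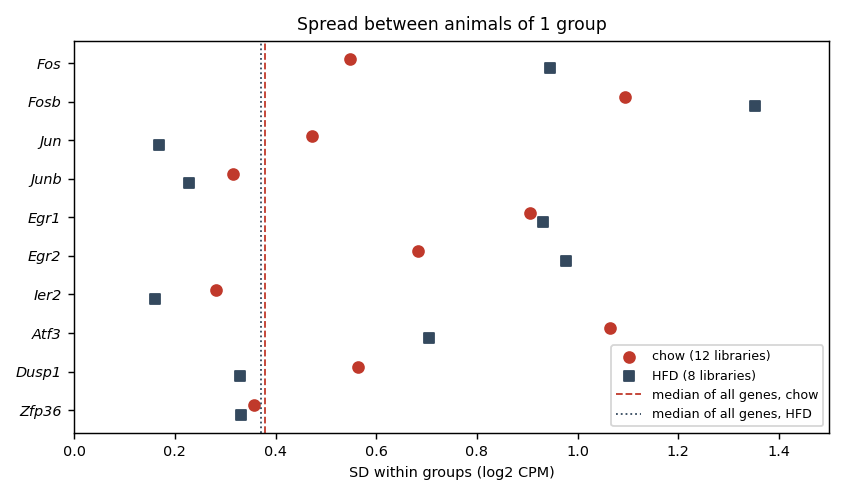
Points give the SD of log2 CPM between animals of 1 group for each gene, pooled over the 3 chow groups (circles) and the 2 HFD groups (squares), and the vertical lines give the median over all 20280 genes. Fosb, Egr1 and Atf3 lie far to the right of both lines, and Ier2 and Junb to the left.

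Libraries that were high for one member were often high for several. Over the 45 pairs of members, the deviations from group means had a median Pearson r of 0.36 on chow (12 libraries) and 0.39 on HFD (8 libraries), with 34 and 36 of the 45 pairs above 0. The HFD median was 0.59, with 35 pairs above 0, in the 6 libraries left without HFD ff 1 and 3. These values describe libraries that share scaling and preparation. Chow Vill 1 was above the chow mean for 8 of the 10 members, chow ff 2 for 8 and chow Alb 3 for 7, whereas chow ff 3 was above it for 1. On HFD, Vill 4 was above the mean for 9 members and Vill 1 for 8, and Vill 3 for 1. The high libraries did not share 1 profile. Fos and Junb were the highest of all chow libraries in Vill 1, whereas Jun, Egr1, Atf3 and Dusp1 were the highest in Alb 3.

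**Figure D4:**
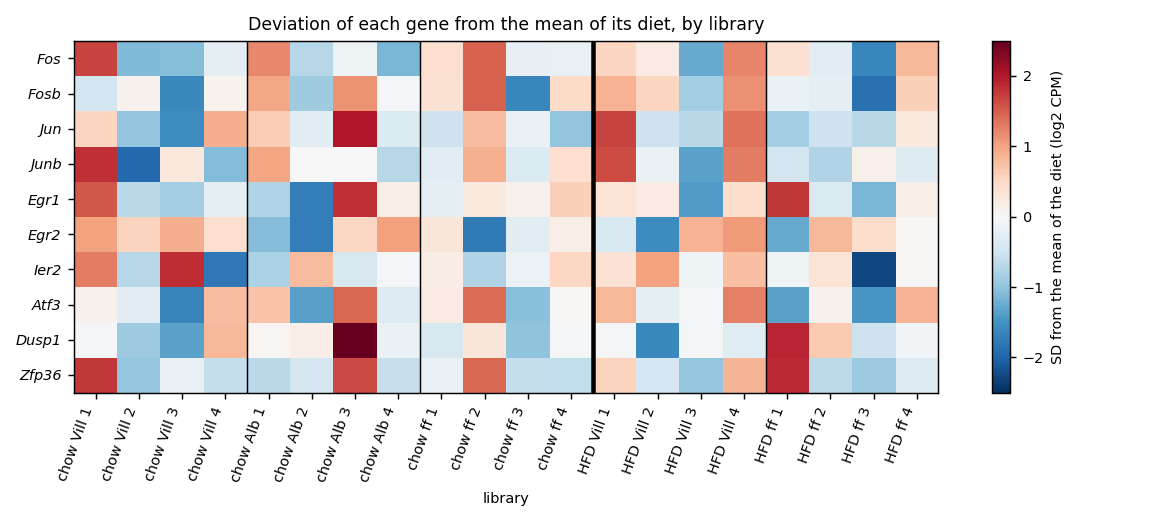
Colours give each gene's log2 CPM in each library as SDs from the mean of the 12 chow or the 8 HFD libraries, with thin lines between groups and a thick line between diets. Red columns run through most rows in chow Vill 1, chow Alb 3, chow ff 2 and HFD Vill 4, and a blue one in HFD ff 3, each with rows that depart from it.

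Fos, the founding member, was compared with the other 9 across libraries, which makes 18 relations over both diets. On HFD, Fosb followed Fos closely, with Pearson's r = 0.94 (exact permutation p = 0.00052, adjusted p = 0.0094) and Spearman's rho = 0.95 (exact permutation p = 0.0011, adjusted p = 0.021, n = 8). Without the 2 libraries farthest from the median of Fos, r was 0.80, and it was 0.98 as deviations from group means. Without the libraries labelled ff 1 and 3 it was 0.96 (exact permutation p = 0.0042, adjusted over 9 relations p = 0.038), with rho = 0.94 (exact permutation p = 0.017, adjusted p = 0.075, n = 6). On chow the Fos and Fosb values were looser, with r = 0.46 (permutation p = 0.13, adjusted p = 0.22) and rho = 0.48 (permutation p = 0.11, adjusted p = 0.23, n = 12). Whether the relation differs between the diets was not tested. Junb was the closest to Fos on chow, with r = 0.77 (permutation p = 0.0031, adjusted p = 0.028), and rho = 0.73 (permutation p = 0.0093, adjusted p = 0.084, n = 12). Without the 2 farthest libraries r was 0.57, and within groups it was 0.77. The other 16 relations did not pass by r. Egr1 had r = 0.77 with Fos on HFD (exact permutation p = 0.026, adjusted p = 0.12) and rho = 0.74 (exact permutation p = 0.046, adjusted p = 0.14, n = 8), and r was 0.24 without the 2 libraries farthest in Fos, so it rests on them. Without the libraries labelled ff 1 and 3 Egr1 had r = 0.94 (exact permutation p = 0.0083, adjusted p = 0.038) and rho = 0.83 (exact permutation p = 0.058, adjusted p = 0.13, n = 6). Ier2 on chow had r = -0.10 (permutation p = 0.74, adjusted p = 0.79) and rho = -0.10 (permutation p = 0.75, adjusted p = 0.84, n = 12).

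**Figure D5:**
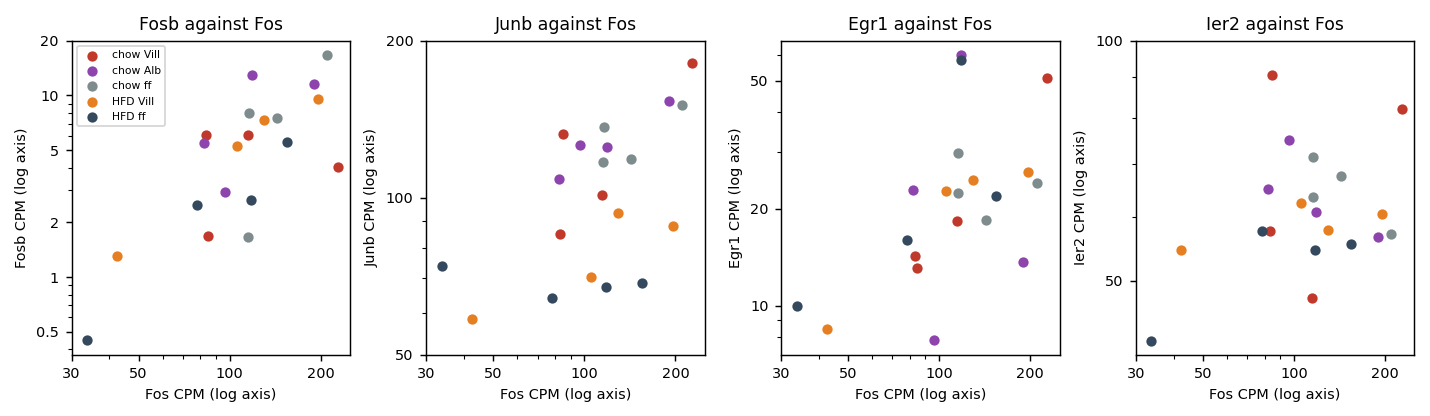
Each panel plots 1 gene against Fos, both in CPM on log axes, with 1 point per library coloured by group. Fosb climbs with Fos through the HFD libraries, Junb with Fos through the chow libraries, Egr1 has 3 libraries above 50 CPM, 1 of them at the highest Fos level and the others near 118 CPM of Fos, and Ier2 on chow shows no trend.

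Fos was also set against 16 marker lists of cell types and gut position, 32 relations over both diets, and none passed after adjustment. The closest on chow was the small intestine list, with r = 0.80 (permutation p = 0.0024, adjusted p = 0.078) and rho = 0.76 (permutation p = 0.0061, adjusted p = 0.12, n = 12), and r = 0.64 without the 2 farthest libraries. Colon epithelium had r = 0.74 (permutation p = 0.0071, adjusted p = 0.11) and rho = 0.73 (permutation p = 0.0092, adjusted p = 0.12, n = 12), and r = 0.40 without the 2 farthest. The list for position along the gut sums Hoxb13, Hoxd13, Hoxd12, Hoxd10, Hoxa13, Hoxb6 and Hoxb8. It had r = -0.68 on chow (permutation p = 0.015, adjusted p = 0.12) and rho = -0.71 (permutation p = 0.012, adjusted p = 0.12, n = 12). B and plasma cell markers on chow had r = -0.65, macrophage markers -0.64 and adipocyte markers 0.64, each with a permutation adjusted p of 0.12. On HFD the small intestine list had r = -0.21 (exact permutation p = 0.65, adjusted p = 0.80) and rho = 0.10 (exact permutation p = 0.84, adjusted p = 0.96, n = 8). Endothelial markers were the closest on HFD, with r = 0.77 (exact permutation p = 0.020, adjusted p = 0.12) and rho = 0.83 (exact permutation p = 0.015, adjusted p = 0.12). Without the 2 farthest libraries their r was 0.17. On chow the endothelial list had the opposite sign, with r = -0.59 (permutation p = 0.047, adjusted p = 0.17) and rho = -0.33 (permutation p = 0.30, adjusted p = 0.56, n = 12). Goblet markers on HFD had r = 0.75 (exact permutation p = 0.036, adjusted p = 0.15) and rho = 0.76 (exact permutation p = 0.037, adjusted p = 0.18). Their r was 0.85 without the 2 farthest. Chow Vill 1, Alb 3 and ff 2, the libraries named above as high for most members, also had the highest sums of the small intestine and colon epithelium lists on chow. Small intestine markers stood there at 1057, 816 and 1248 CPM and colon epithelium markers at 22607, 17341 and 19303 CPM. In whole colon, fewer cells of a type and less RNA per cell cannot be told apart, and the part of cell makeup in the spread of Fos was not tested.

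Among the 6 other genes that varied most like the members were Atf4, Hbegf, Snx3, Fosl1 and Klf10. Likeness was Pearson's r with the mean of the members' standardised deviations from group means, taken as the lower of the chow (12 libraries) and HFD (8 libraries) values over 20270 genes, and because the genes were chosen for it no test is given. The r was 0.92 on chow and 0.90 on HFD for Atf4, which drives the integrated stress response. Hbegf, a ligand of the epidermal growth factor receptor, had 0.92 and 0.89. Its level was 51.4 CPM in chow Vill 1, 54.0 in chow ff 2 and 11.0 in chow Alb 2. Fosl1, a Fos relative and AP-1 partner, had 0.88 and 0.90 at a mean of 0.60 CPM, and Klf10, a TGF-beta-inducible early gene, 0.90 and 0.87. Snx3, an endosomal sorting nexin, had 0.89 and 0.89. Among the members themselves Fos had 0.73 and 0.93, Zfp36 0.87 and 0.72, and Egr2 0.17 and -0.03. Each member is part of the mean it is set against, which raises its r, so these values are not on a par with those of the other genes. Without the libraries labelled HFD ff 1 and 3 the HFD r was 0.86 for Atf4, 0.88 for Hbegf, 0.93 for Snx3, 0.81 for Fosl1 and 0.86 for Klf10.

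Genes around these in the same pathways were looked at as 7 lists, 110 genes in all. The lists hold further AP-1, Egr and Nr4a factors, other rapidly induced genes, feedback inhibitors, growth factors and receptors, kinases, upstream factors, and mRNAs known as Zfp36 targets. Of them 105 were tested on chow, 102 on HFD and 104 across diets, and with edgeR 0 were called higher and 0 lower in each of the 5 comparisons. The median log2 fold change of these genes was -0.06 in chow Vill against chow ff, -0.01 in chow Alb against chow ff and -0.03 in chow Vill against chow Alb. In chow Vill against chow ff 39 of 105 (37.1%) had a fold change above 0, beside 50.8% of all genes. The shares were 49.5% beside 50.1% in chow Alb against chow ff, and 46.7% beside 52.8% in chow Vill against chow Alb. For the difference between diets 76 of 104 (73.1%) lay above 0, beside 48.1% of all genes. Without the libraries labelled HFD ff 1 and 3 the share was 63.8%, beside 49.7%. In every comparison, listed genes that vary together between libraries are not independent, so a few libraries can move many signs and the shares are no test. The chow shares were not repeated with libraries left out. On HFD, where no gene of the lists was called, 72 of 102 (70.6%) had a fold change above 0, with a median of 0.12, beside 49.3% of all genes. Leaving out ff 1 and 3 gave 58 of 102 (56.9%), with a median of 0.04, beside 52.1% of all genes. The feedback inhibitors had 15 of 18 above 0 with all libraries and 10 of 18 without those libraries, and the AP-1, Egr and Nr4a factors 9 of 10 and 7 of 10. The growth factors and receptors went the other way, from 6 of 13 to 9 of 13. Other rapidly induced genes had 17 of 26 and 12 of 26, and kinases 14 of 20 and 12 of 20. Upstream factors had 7 of 11 and 5 of 11, and Zfp36 targets 4 of 4 and 3 of 4. Spred2, a membrane inhibitor of Ras signalling to ERK, had the smallest p of all listed genes on HFD. Its log2 fold change was 0.32 (0.10 to 0.54, edgeR adjusted p = 0.93), or 0.24 without ff 1 and 3. Rgs2, which limits G protein signalling, had -1.32 (-2.51 to -0.13, edgeR adjusted p = 0.93), and 0.08 (-0.41 to 0.57) without them.

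On chow, Mef2d, of the MEF2 family that binds the Jun promoter, had -0.17 (-0.35 to 0.02, edgeR adjusted p = 1.00) and Socs3, an inhibitor of cytokine signalling, -0.90 (-2.01 to 0.20, edgeR adjusted p = 1.00) in Vill against ff. In Alb against ff, the hepatocyte growth factor receptor Met had -0.25 (-0.45 to -0.04) and Klf10 -0.45 (-0.89 to -0.00), both with an edgeR adjusted p of 0.99. In Vill against Alb, the small GTPase gene Rhob had -0.43 (-0.78 to -0.09) and the fibroblast growth factor receptor Fgfr1 -0.85 (-1.54 to -0.15), both with an edgeR adjusted p of 0.54. For the difference between diets, Spred2 had 0.39 (0.10 to 0.68) and Mef2d 0.46 (0.10 to 0.82), both with an edgeR adjusted p of 1.00, and without the libraries labelled HFD ff 1 and 3 they had 0.31 and 0.28.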

How the data were processed

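Read counts per gene and library were used as deposited. HISAT2 (2.0.5), featureCounts (1.5.0-p3) and the build mm39 are named in the submitters' processing notes, which also list edgeR (3.22.5) and DESeq2 (1.20.0), all with no role stated. Neither the annotation release nor the strand setting is given in the sources used here. The log2 fold changes and adjusted p-values deposited by the authors serve for comparison alone, and 28 further per-sample columns were not used. Counts went into edgeR 4.0.16 in R 4.3.3, with TMM scaling, its default filter on low counts, the quasi-likelihood F test and Benjamini-Hochberg adjustment over all genes tested. The 3 chow comparisons came from 1 fit of 12 libraries, HFD from 8, and the difference between diets from 16. Intervals are 95%. Levels are CPM scaled over all 20 libraries, and log2 CPM uses a prior count of 2.

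Alternatives were DESeq2 1.42.0, limma-voom (limma 3.58.1), other size factors, no filter, only the groups compared, a replicate block, and leaving out libraries. Depth was 16.9 to 40.4 M reads per library. The fits were tested on simulated data. Nothing says that animals of a group come from separate litters or cages, so p-values measure the spread between these samples.

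The members, the gene lists and the tests were chosen with earlier results of these data known, and the marker lists were set against Fos after seeing the data. Spread, correlations, likeness and pathway lists without HFD ff 1 and 3 were also added after seeing the data. Named are all members, Pcca, the 2 pathway genes with the smallest p in each comparison and the 6 genes most like the members, of which 1 is not reported here. Permutation tests are 2-sided, by random permutation with 12 libraries and exact with 8.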

Additional observations from a re-analysis of the deposited data

Results flagged for a closer look

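In 50 groups of 4 libraries (10 genes in 5 groups), 3 had a highest or lowest library farther from the rest than Dixon's 95% limit for the gap allows. Chance flags about 1 in 20 such groups. Dusp1 stood at 119.7 CPM in chow Alb 3, against 40.5 to 46.4 CPM in the other Alb libraries. Zfp36 in the same library stood at 145 CPM, against 85.8 to 90.9 CPM in the others. Egr1 was lowest in HFD Vill 3, at 8.47 CPM, against 22.6 to 25.9 CPM in the other HFD Vill libraries.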

How the results depend on the processing

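Over 78 fits under the alternatives, across the 5 comparisons, 0 members were called in any, and the smallest adjusted p of a member was 0.39, in chow Vill against chow Alb without chow Vill 4. Over all 10 members and 5 comparisons, 105 of 780 fold changes under an alternative had the opposite sign to the main one. They belong to 29 of the 50 results, and 31 of the 105 to results whose main fold change is over 0.1 from 0 on the log2 scale. Atf3 in chow Vill against chow ff had -0.42, and 0.14 without ff 2, and in chow Vill against chow Alb -0.48, and 0.04 without Alb 3. Egr1 in the difference between diets had -0.43, and 0.32 without HFD ff 1. Leaving out 1 library moved the log2 fold change of Fos over -0.65 to 0.03 in chow Vill against chow ff, over -0.39 to 0.37 in chow Vill against chow Alb and over -0.07 to 0.60 in HFD Vill against HFD ff. It moved that of Egr1 over -0.69 to 0.35 in HFD Vill against HFD ff, and without HFD ff 1 and 3 the value was 0.11. Fosb and Egr2 kept their direction in every alternative fit of chow Vill against chow ff and against chow Alb. Over all genes, edgeR called 1 gene in chow Vill against chow ff, 0 in chow Alb against chow ff, 1 in chow Vill against chow Alb and 1 on HFD. DESeq2 called 4, 4, 65 and 4, and the cause was not tested. Without the libraries labelled HFD ff 1 and 3, edgeR called 2 genes on HFD. Whether replicate numbers pair littermates is not given, and the correlations of same-numbered libraries cannot decide it. On chow, same-numbered Vill and ff libraries had correlations of deviations from -0.43 to 0.31, and on HFD from -0.39 to 0.45. On HFD 2 of 4 libraries matched their own number best, and on chow Alb 4 matched ff 4 best (r = 0.47). With the replicate block 0 members were called in each comparison, and over all genes 0 in the chow comparisons and 1 on HFD. At an unadjusted edgeR p under 0.05 the block gave 2 members on HFD and 1 for the difference between diets, against 0 in the main fits. The block turned Egr1 in chow Alb against chow ff, 0.14, to -0.13. The depth limits Egr2, which has 2 to 50 reads per library, and the spread limits Fosb, whose interval in chow Vill against chow ff, -2.33 to 0.48, holds a log2 change of -1.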

Other observations

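The chow and HFD libraries differ in diet, age and sex at once, so their levels are given side by side with no test. Several members stood lower on HFD, and so did goblet markers and some, not all, marker lists of stromal and immune cells. Goblet markers (7 of 7 measured) had a median sum of 13979 CPM on HFD and 36169 on chow. Neuron and glia markers had 119 on HFD and 112 on chow, the mast cell list 73.8 and 82.5, and small intestine markers 495 and 291. The mast cell sum is mainly Kit, at up to 115 CPM in a library. Cpa3, Cma1, Mcpt4 and Tpsb2 reached at most 0.76, 5.61, 0.52 and 1.36 CPM, so this sum does not measure mast cells. Fibroblast markers (7 of 7 measured) summed to 305 to 683 CPM on HFD and 636 to 1340 on chow, macrophage markers (8 of 8) to 45.7 to 70.1 on HFD and 66.3 to 192 on chow, endothelial markers (7 of 7) to 44.9 to 93.3 on HFD and 59.1 to 132 on chow, and B and plasma cell markers (7 of 7) to 51.0 to 319 on HFD and 231 to 1292 on chow. Their part in the levels below was not tested. Dusp1 ran from 12.5 to 29.96 CPM with a median of 18.4 in the 8 HFD libraries, and from 25.2 to 119.7 with a median of 42.8 in the 12 chow libraries. Zfp36 had a median of 56.8 CPM on HFD (50.03 to 91.0) and 89.4 on chow (80.3 to 149). Junb had a median of 69.5 CPM on HFD (58.5 to 93.3) and 125.6 on chow (85.1 to 181), and Jun 77.8 on HFD (74.5 to 102) and 140.2 on chow (91.9 to 286). Atf3 had a median of 16.8 CPM on HFD (7.75 to 31.7) and 47.6 on chow (14.5 to 119). Fos and Egr1 did not share that difference in level. Fos had a median of 112 CPM on HFD (33.8 to 196) and 116 on chow (82.2 to 227), and Egr1 22.3 on HFD (8.47 to 58.2) and 20.4 on chow (7.80 to 60.2).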
